A study of Mus musculus with 11 samples.

Results

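The mitochondrial ribosomal protein genes of the mouse, whose symbols begin with Mrpl (large subunit) or Mrps (small subunit) followed by a digit, were followed in gingival epithelium. The deposited table listed 78 such symbols besides 6 pseudogene names, and 77 of them had values: 48 of 49 Mrpl genes, Mrpl53 being listed without a value, and 29 of 29 Mrps genes. They are 77 of the 19170 genes with values in the series. The mean over the 11 mice was at least 10 normalized counts for each of the 77, so none of them was lost to a filter on low counts. All 11 mice were langerin-DTR mice, in which the langerin promoter drives the receptor for diphtheria toxin (DT), so that DT kills langerin-expressing cells, mainly Langerhans cells (LCs), the antigen-presenting cells of this epithelium. The controls carried the same transgene: 5 mice received PBS and 6 mice received DT, with injections at postnatal days 17, 24 and 31, and the tissue was taken from mice 8 weeks old. The injections were timed to remove LCs early in life, with the tissue sampled after their return, so the comparison concerns epithelium that had passed a period without LCs and not epithelium that lacked them when it was sampled. PolyA-selected RNA of each mouse was sequenced as 1 library.

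Mitochondria keep their own ribosome, which translates the few mRNAs of the mitochondrial genome, all of them coding for subunits of the respiratory chain and of ATP synthase. Its ribosomal RNAs come from mitochondrial DNA, whereas every one of its proteins is encoded in the nucleus, made in the cytosol and imported. Some of these proteins descend from the ribosome of the bacterial ancestor, and others were added in mitochondria. The small subunit binds the mRNA and decodes it, and the large subunit joins the amino acids and is tethered to the inner membrane. In a renewing epithelium, as in other tissues, transcripts of these genes are commonly found in every cell.

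The windows around the transcription start of 7 members are shown because the results return to them: Mrps23 and Mrps27 had the smallest p-values of the small subunit and Mrpl20 that of the large subunit, Mrpl22 had a fold change closest to 0, Mrpl32 held the most matches of a single motif, and Mrps11 and Mrpl46 share a start region. Each window runs 5′ to 3′ on the strand of the gene from 170 bases before to 30 bases after the start in RefSeq on GRCm38.p6. Capitals mark exact matches, on either strand, to 5 motifs: CCGGAAG (the core of ETS factors such as GABPA), GCGCATGC (NRF1), AAGATGGC (YY1), TGACGTCA (the cAMP response element) and CACGTG (the E-box of MYC and MAX).
Mrps23 (chr11:88204218-88204417, plus strand): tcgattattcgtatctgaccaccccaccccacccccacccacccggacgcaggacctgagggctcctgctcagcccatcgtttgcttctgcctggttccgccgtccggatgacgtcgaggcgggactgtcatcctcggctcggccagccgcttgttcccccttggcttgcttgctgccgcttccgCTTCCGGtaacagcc
Mrps27 (chr13:99344616-99344815, plus strand): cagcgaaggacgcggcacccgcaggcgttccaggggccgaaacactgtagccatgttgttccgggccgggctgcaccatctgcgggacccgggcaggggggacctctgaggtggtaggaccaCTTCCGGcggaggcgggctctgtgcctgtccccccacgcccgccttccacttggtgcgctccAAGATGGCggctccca
Mrpl20 (chr4:155802708-155802907, plus strand): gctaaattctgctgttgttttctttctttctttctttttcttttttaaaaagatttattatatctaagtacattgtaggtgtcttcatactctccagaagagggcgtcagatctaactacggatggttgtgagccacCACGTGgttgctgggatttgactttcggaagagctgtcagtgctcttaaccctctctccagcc
Mrpl22 (chr11:58171494-58171693, plus strand): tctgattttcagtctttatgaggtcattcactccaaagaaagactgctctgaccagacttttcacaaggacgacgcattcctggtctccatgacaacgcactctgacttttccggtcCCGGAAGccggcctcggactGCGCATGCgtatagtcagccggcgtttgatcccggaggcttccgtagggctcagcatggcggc
Mrpl32 (chr13:14613008-14613207, minus strand): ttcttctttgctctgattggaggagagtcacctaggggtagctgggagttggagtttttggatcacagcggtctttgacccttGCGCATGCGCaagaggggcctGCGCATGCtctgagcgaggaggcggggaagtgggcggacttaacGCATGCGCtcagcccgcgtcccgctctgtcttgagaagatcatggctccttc
Mrps11 (chr7:78782961-78783160, plus strand): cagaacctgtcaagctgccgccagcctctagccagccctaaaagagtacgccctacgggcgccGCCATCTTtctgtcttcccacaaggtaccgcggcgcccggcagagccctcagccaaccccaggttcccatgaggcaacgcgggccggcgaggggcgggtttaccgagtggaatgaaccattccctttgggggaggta
Mrpl46 (chr7:78783060-78783259, minus strand): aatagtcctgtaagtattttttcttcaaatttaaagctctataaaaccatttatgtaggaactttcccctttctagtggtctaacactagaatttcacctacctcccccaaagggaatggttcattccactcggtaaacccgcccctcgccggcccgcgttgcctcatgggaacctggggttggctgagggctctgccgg
The windows of Mrps11, of the small subunit, and Mrpl46, of the large subunit, run in opposite directions and share 101 bases, since their starts lie 42 bases apart on chromosome 7.

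Depth was similar in both groups. PBS mice had 17667564 to 22180195 counted reads each, and DT mice 17509328 to 24325513. Of these reads, 27918 to 40649 per mouse fell on the 77 members, which is 0.148% to 0.175% of the reads after PBS and 0.166% to 0.178% after DT. The epithelial origin was checked with 10 keratinocyte markers, all of which were measured: their summed level was 2530000 to 2617000 normalized counts after PBS and 2577200 to 2806200 after DT. Of 8 markers of skeletal muscle, a tissue rich in mitochondria, 6 had a mean under 10 normalized counts, and the summed level of the list was 58.3 to 119 after PBS and 57.9 to 113 after DT. PBS 3 and PBS 5 lay apart from the other PBS mice on the first principal component of the 500 most variable genes, none of which is a member: their coordinates were 17.2 and 20.9, those of PBS 1, PBS 2 and PBS 4 were -12.95 to -11.9, and those of the DT mice were -9.09 to 10.5. The same PBS 3 and PBS 5 had the highest levels of the class II gene H2-Ab1, which LCs express, with 911 and 724 normalized counts against 337 to 421 in the other PBS mice and 213 to 549.6 in the DT mice. Cd1d1, also listed for LCs, did not follow, with 30.2 in PBS 3 and 47.2 in PBS 5 against 36.4 to 61.2 in the other PBS mice. S100a8, listed for neutrophils and monocytes, was 983 and 1297 against 222 to 325, and 258 to 1690.5 in the DT mice.

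At the study's threshold, no gene of the mitochondrial ribosome differed between DT and PBS. With limma on log2(normalized count + 1) and Benjamini-Hochberg adjustment over all 19170 genes, 0 of 48 large subunit genes and 0 of 29 small subunit genes had an adjusted p under 0.1, where 0.313% of all genes were called higher and 0.245% lower. The smallest adjusted p of a member was 0.209 (Mrps23, by limma). At an unadjusted p under 0.05, 8 large and 6 small subunit genes were higher after DT, which is 16.7% and 20.7% of each subunit beside 5.31% of all genes. None was lower at that level, beside 6.19% of all genes. The groups did not overlap in 1 member, Mrps27, which was higher in every DT mouse, beside 0.902% of all genes, and no member was lower in every DT mouse, beside 0.751%.

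The estimates lay on the same side for most members, and they were small. The log2 fold change was positive in 45 of 48 large subunit genes (93.8%) and in 24 of 29 small subunit genes (82.8%), beside 47.3% of all genes and 51.5% of the 6136 genes within the range of the members' mean levels. The median log2 fold change was 0.080 for the large subunit, a ratio of 1.06, and 0.10 for the small subunit, a ratio of 1.07, beside -0.0105 for all genes. Every member lay between -0.066 and 0.25. A single member was estimated with a median standard error of 0.071, so that the typical difference was about as large as its own error and would not be detectable gene by gene with these 11 mice. The members share their mice, and their values are therefore not independent of one another. These are counts and medians of a list chosen with results of these data known, with no test of the list. In bulk RNA, less RNA of a gene per cell and fewer of the cells that hold it cannot be told apart.

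**Figure D1:**
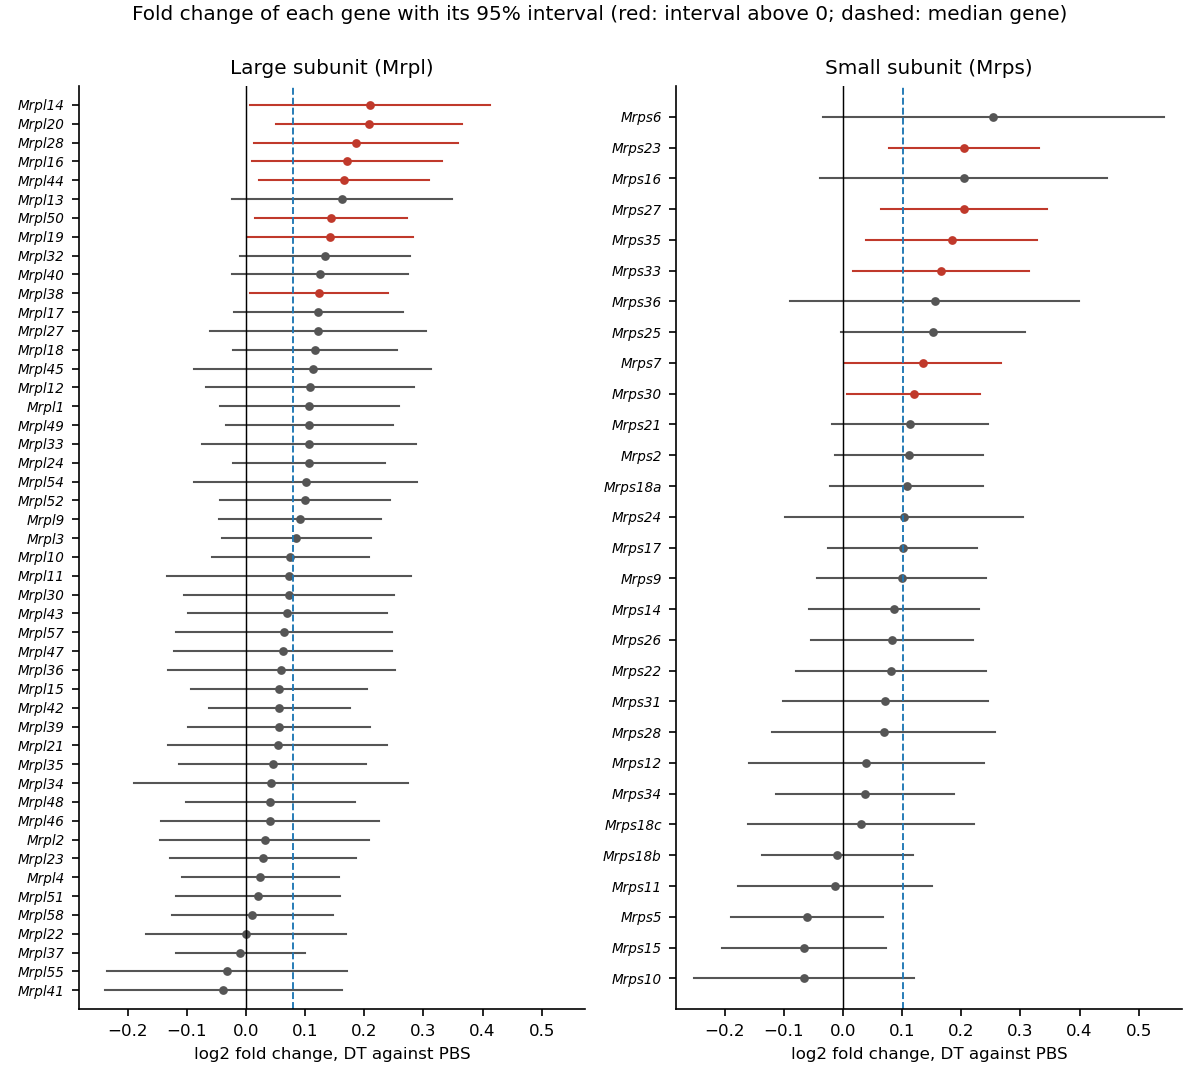
Each point is the log2 fold change of 1 gene after DT against PBS (x axis), with its 95% interval from limma as a bar, for the 48 Mrpl genes (left) and the 29 Mrps genes (right) in order of size. The 14 intervals in red lie above 0 before adjustment, none lies below 0, and the dashed lines mark the medians of 0.080 and 0.10.

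The difference between the groups came with a wider spread among the PBS mice. For each member, the value of every mouse was set against the mean of the gene over all 11 mice on the log2 scale, and the median member was taken per mouse. For the large subunit this median was -0.13, -0.029, 0.036, -0.20 and 0.11 from PBS 1 to PBS 5, and 0.0038 to 0.095 in the 6 DT mice, with a median of 0.020. For the small subunit it was -0.082, -0.040, 0.030, -0.17 and 0.043 in the same PBS mice and -0.0054 to 0.11 in the DT mice, with a median of 0.040. PBS 4 and PBS 1 were the low mice in both subunits, PBS 3 lay among the DT mice, and PBS 5 was above every DT mouse for the large subunit. The groups therefore overlapped. PBS 4 held the lowest of the 11 values in 46 of the 77 members (59.7%), whereas it held the lowest value in 17.3% of the 13477 genes averaging 10 or more normalized counts.

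**Figure D2:**
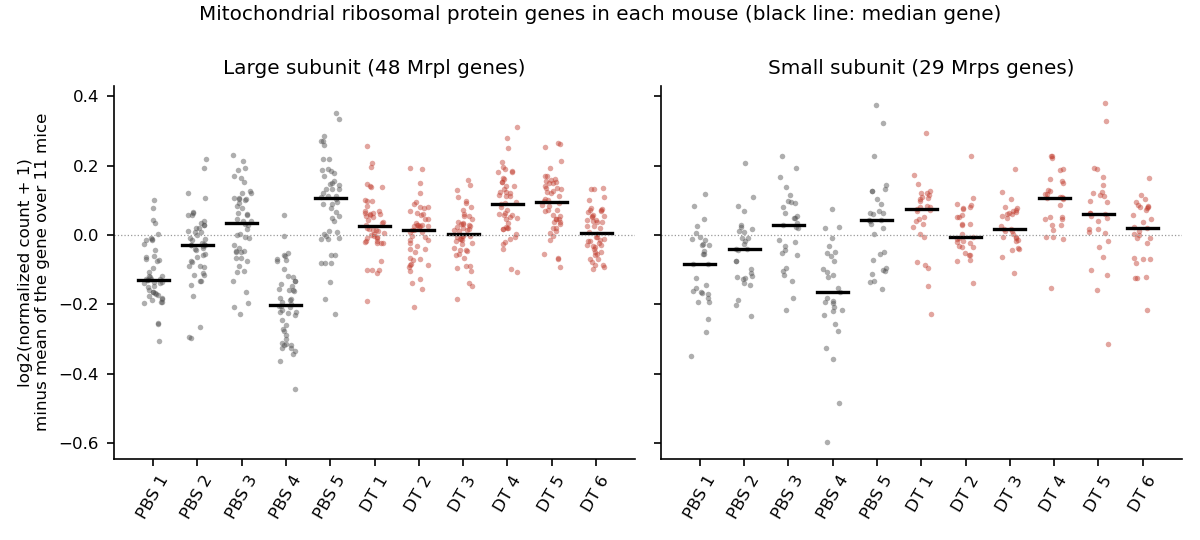
Each point is 1 gene in 1 mouse: log2(normalized count + 1) minus the mean of that gene over 11 mice (y axis), for PBS mice (grey) and DT mice (red), with the median gene as a black line. PBS 4 is the lowest mouse in both panels, at -0.20 and -0.17, and the DT medians lie between -0.0054 and 0.11.

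The SD of the log2 values was larger in PBS than in DT mice for 61 of 77 members (79.2%), with medians of 0.13 and 0.086. This was also so for 69.3% of the 13477 genes, with medians of 0.17 and 0.12. All 6 DT values exceeded the PBS mean in 32 members (41.6%), which were 19 large and 13 small subunit genes, beside 9.69% of all genes. Summed over the subunit, the large subunit reached 22410 ± 1708 normalized counts after PBS (SD, n = 5) and 23720 ± 726 after DT (SD, n = 6), and the small subunit 10600 ± 575 and 11280 ± 257. The sum of the large over that of the small subunit was 2.112 ± 0.048 after PBS and 2.102 ± 0.039 after DT, so that the subunits kept their proportion within the spread between mice.

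The size of the shift depended on single mice of both groups. Without PBS 4, the median log2 fold change fell to 0.046 for the large and 0.068 for the small subunit, and 35 of 48 large subunit genes stayed positive. Without PBS 1 the medians were 0.063 and 0.087. Without DT 5 they were 0.065 and 0.10. Without DT 4 they were 0.083 and 0.099, and 40 of 48 large subunit genes stayed positive. Without PBS 5, the medians were 0.12 and 0.11, and 14 large and 10 small subunit genes were higher at an unadjusted p under 0.05. The share of all genes at that p was not counted in this fit, while all genes past the threshold rose from 107 to 259. Mrps23 (log2 fold change 0.25, limma adjusted p = 0.0596) and Mrpl28 (0.27, limma adjusted p = 0.0848) passed the threshold, as did 0.809% of all genes in this direction. The medians stayed positive in all 11 fits that each left out a mouse, and 54 of 77 members had a positive log2 fold change in all of them.

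Leaving out both PBS 3 and PBS 5, which were chosen after the data were seen for their place on the first principal component, changed the call. The medians then rose to 0.15 and 0.16, and 19 members passed the threshold by limma, all of them higher after DT: 12 of the large and 7 of the small subunit, with Mrpl14 (0.36, limma adjusted p = 0.0209) and Mrps35 (0.28, limma adjusted p = 0.0227) at the smallest p. In that fit 4.81% of all genes were called higher after DT. These were also the PBS mice with the highest member levels, and the 3 controls that remain include PBS 1 and PBS 4, the lowest. How far the features that set PBS 3 and PBS 5 apart, H2-Ab1 among them, bear on the members was not tested.

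**Figure D3:**
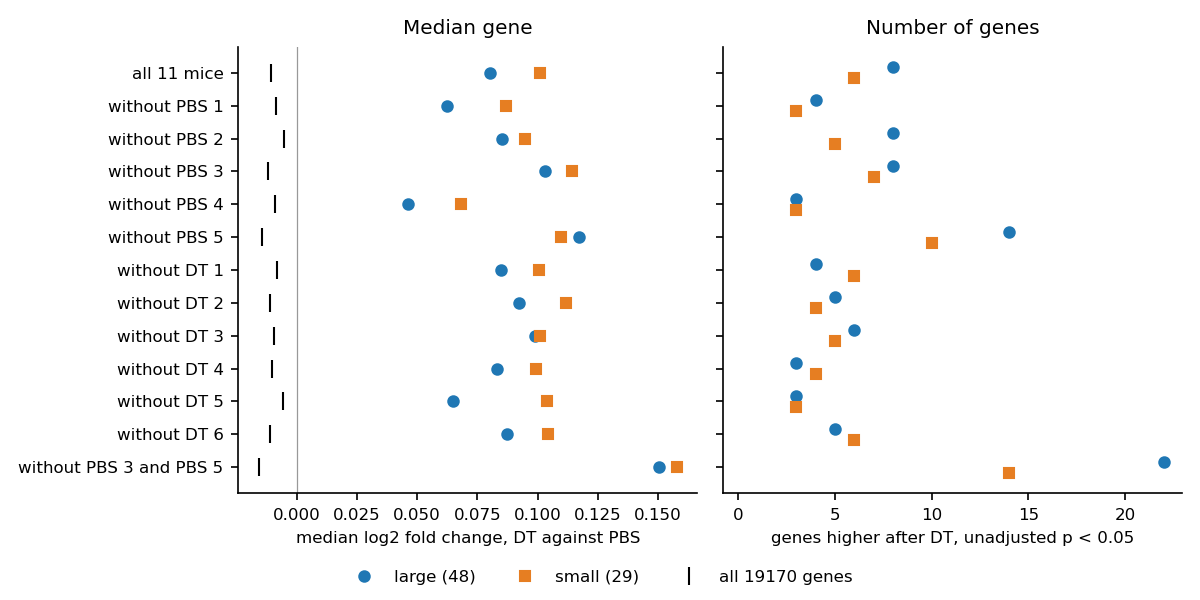
Median log2 fold change after DT against PBS (left, x axis) and number of genes higher at an unadjusted p under 0.05 (right, x axis) for 48 Mrpl genes (blue) and 29 Mrps genes (orange), with all 11 mice and with the mice named on the y axis left out. The medians run from 0.046 without PBS 4 to 0.16 without PBS 3 and PBS 5, while the median of all genes (black) stays just under 0.

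Among large subunit proteins with a bacterial counterpart, Mrpl20 had the smallest p. This protein of the ribosome's core (ENSMUSG00000029066, chromosome 4, 155802878 to 155809975, plus strand, GENCODE on GRCm38) had 565, 629, 548, 515 and 685 normalized counts from PBS 1 to PBS 5, and 627, 676 and 733 as the lowest, median and highest of the DT mice. The DT mice lay in the upper part of the PBS range and 3 of them above it. The log2 fold change was 0.21 (SE 0.074, 95% interval 0.05 to 0.37, limma adjusted p = 0.289), and the unadjusted p stayed under 0.05 whichever of the 11 mice was left out. Mrpl28 (ENSMUSG00000024181) had 451, 493, 458, 412 and 597 normalized counts in the PBS mice, and the lowest, median and highest DT values were 518, 541 and 586. Every DT mouse lay above 4 of the PBS mice and below PBS 5, and the log2 fold change was 0.19 (SE 0.081, limma adjusted p = 0.391).

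Mrpl14 had 378, 423, 465, 371 and 545 normalized counts after PBS and 437, 493 and 568 as the lowest, median and highest after DT, with PBS 5 and PBS 3 inside the DT range (log2 fold change 0.21, SE 0.096, limma adjusted p = 0.412). Mrpl16 had 235, 208, 262, 243 and 254 after PBS and 244, 273 and 287 after DT, and 5 of 6 DT mice lay above every PBS mouse (log2 fold change 0.17, SE 0.076, limma adjusted p = 0.398). Mrpl19 differed by 0.14 on the log2 scale (SE 0.066, limma adjusted p = 0.430). Mrpl12, which forms the stalk that recruits translation factors and also binds the mitochondrial RNA polymerase, had 551, 575, 663, 508 and 706 normalized counts after PBS and 585, 629 and 706 after DT, with PBS 3 and PBS 5 at the level of the DT mice and the other PBS mice below all of them (log2 fold change 0.11, 95% interval -0.07 to 0.28, limma adjusted p = 0.659).

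Of the large subunit proteins without a bacterial counterpart, Mrpl44, Mrpl50 and Mrpl38 had an unadjusted p under 0.05. Mrpl44 (ENSMUSG00000026248, chromosome 1), whose protein has a fold related to ribonuclease III, had 303, 340.1, 309.8, 293 and 320.0 normalized counts after PBS and 329, 343 and 400.3 as the lowest, median and highest after DT. Only PBS 2 reached the DT range, and the log2 fold change was 0.17 (SE 0.068, limma adjusted p = 0.356). Mrpl50 had 404, 432, 396, 369 and 399 after PBS and 419.5, 438 and 472 after DT, again with PBS 2 as the only PBS mouse inside the DT range (0.14, SE 0.061, limma adjusted p = 0.370). Mrpl38 had 624 ± 31.4 normalized counts after PBS (SD, n = 5) and 680.1 ± 34.0 after DT (SD, n = 6), a log2 fold change of 0.12 (SE 0.055, limma adjusted p = 0.404). Mrpl45, which holds the ribosome at the inner membrane, ran from 292 in PBS 4 to 447 in PBS 3, and the DT mice lay between 388 and 442 (log2 fold change 0.11, 95% interval -0.09 to 0.31).

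The large subunit genes that did not share the direction were Mrpl41, Mrpl55 and Mrpl37, and none of their intervals left out 0. Mrpl37 is the most abundant of them and was measured closely: 896, 884, 812, 819.6 and 854 normalized counts after PBS and 807, 842 and 904 after DT, so that both groups covered the same range (log2 fold change -0.0092, 95% interval -0.12 to 0.10). Mrpl41 gave -0.038 and Mrpl55 -0.032, with standard errors of 0.094 and 0.096. Mrpl22, whose printed window holds an ETS and an NRF1 match, had 184, 179, 207, 169 and 183 normalized counts after PBS and 166 to 200.2 after DT (95% interval of the log2 fold change -0.17 to 0.17). Mrpl58, also known as Ict1, belongs to the ribosome but also releases peptides from stalled ribosomes. It had 322, 327, 303, 282 and 325 normalized counts after PBS and 298, 313 and 332 after DT, with a log2 fold change of 0.011 (95% interval -0.13 to 0.15). Mrpl34 varied most within the groups, with an SD of 0.20 on the log2 scale, from 210.4 in PBS 4 to 334 in PBS 5, and its log2 fold change was 0.042 (SE 0.11).

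In the small subunit, Mrps23, Mrps27 and Mrps35, all without a bacterial counterpart, had the smallest p-values, and each kept an unadjusted p under 0.05 whichever of the 11 mice was left out. Mrps23 (ENSMUSG00000023723, chromosome 11, 88204388 to 88211507, plus strand) had 474, 527, 478, 469.9 and 569 normalized counts from PBS 1 to PBS 5, and 565, 579.6 and 590.3 as the lowest, median and highest after DT. Only PBS 5 reached the narrow DT range. The log2 fold change was 0.20 (SE 0.060, 95% interval 0.08 to 0.33, limma adjusted p = 0.209).

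Mrps27 (ENSMUSG00000041632, chromosome 13, 99344786 to 99415562, plus strand), a pentatricopeptide repeat protein that binds RNA, had 346, 309, 347, 309 and 321 normalized counts after PBS and 351, 368 and 411 as the lowest, median and highest after DT. It was the only member in which the groups did not overlap, although PBS 3 and DT 3 lay close, with 347 and 351. The log2 fold change was 0.20 (SE 0.066, 95% interval 0.06 to 0.34, limma adjusted p = 0.246). Of its exon bases 24.2% overlap a transcript on the opposite strand. Mrps35 had 312, 302, 353, 296 and 363 after PBS and 351, 371 and 385 after DT, with PBS 3 and PBS 5 inside the DT range (log2 fold change 0.18, SE 0.068, limma adjusted p = 0.303). Mrps33 had 318, 339, 329.9, 312 and 384 after PBS and 339.6, 379.6 and 401 after DT, and PBS 5 exceeded the DT median (0.17, SE 0.070, limma adjusted p = 0.371).

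**Figure D4:**
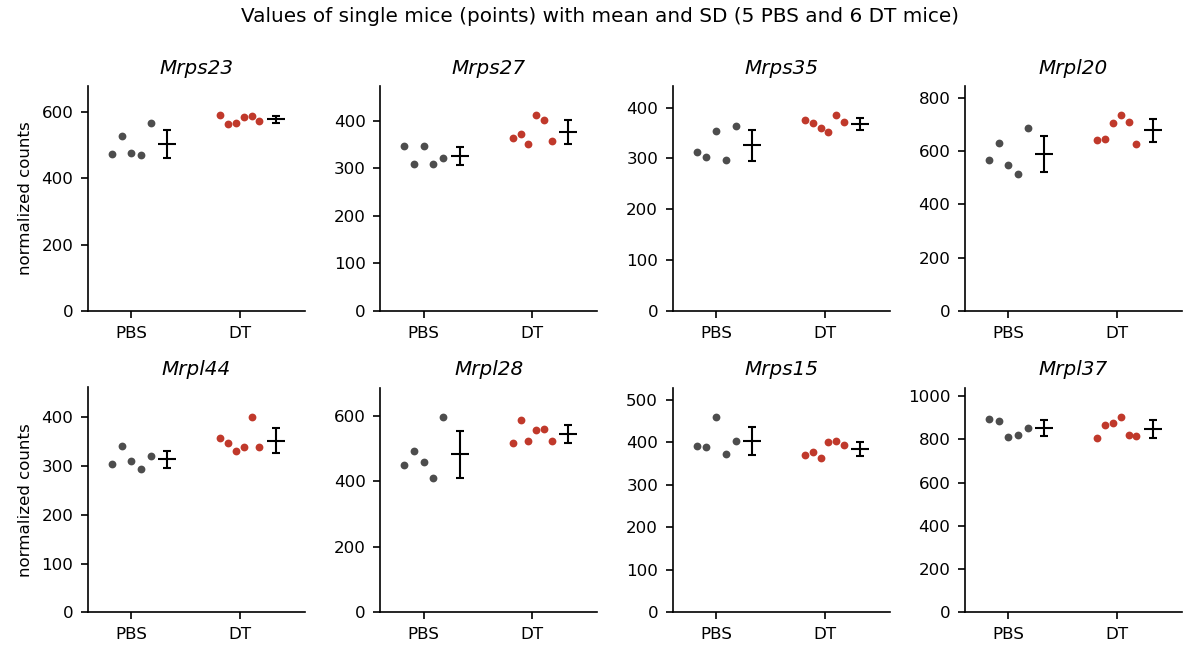
Normalized counts of single mice (y axis, from 0) after PBS (grey, 5 mice) and DT (red, 6 mice) for 8 members, with mean and SD in black beside the points. The groups are separate for Mrps27, with 309 to 347 against 351 to 411, and overlap in the other panels, completely for Mrpl37.

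Of small subunit proteins with a bacterial counterpart, Mrps7 alone had an unadjusted p under 0.05. It had 696, 717, 635, 657 and 809 normalized counts after PBS and 733, 779 and 794 after DT, and PBS 5 lay above every DT mouse (log2 fold change 0.14, SE 0.062, limma adjusted p = 0.416). Mrps6 had the largest estimate of all members and also the lowest level and the widest spread: 90.5, 95.2, 111, 68.3 and 113 after PBS and 95.4, 113 and 135 after DT (log2 fold change 0.25, 95% interval -0.03 to 0.54, limma adjusted p = 0.493). Of its exon bases 19.9% are shared on the same strand with Slc5a3 and another transcript, so its count is uncertain. Mrps12, a protein of the decoding centre, gave 0.040 (95% interval -0.16 to 0.24).

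Of the small subunit genes, 5 had a negative log2 fold change. Mrps15 had 390.4, 389.7, 459.6, 372 and 403 normalized counts after PBS and 364, 385 and 403 after DT, with PBS 3 alone above the DT range (log2 fold change -0.066, SE 0.065, limma adjusted p = 0.754). Mrps5 had 478, 443, 471, 458 and 457 after PBS, within the DT range of 409.8 to 475 but for PBS 1 (-0.060, SE 0.061, limma adjusted p = 0.757). Mrps10 gave -0.066 (SE 0.087, limma adjusted p = 0.828). Mrps11 and Mrpl46, the pair with the shared start region, gave -0.013 (SE 0.077) and 0.041 (SE 0.086), and neither differed beyond its error.

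The genes whose names place them in the small subunit include some that sit elsewhere. The 3 paralogs of bacterial S18 are kept in different places: Mrps18c and Mrps18b belong to the small subunit and Mrps18a to the large. Their log2 fold changes were 0.031 (SE 0.090), -0.0095 (SE 0.060) and 0.11 (SE 0.061). Mrps18a had 328, 329, 370.1, 337 and 379 normalized counts after PBS and 366, 373 and 389.7 after DT, so that PBS 3 and PBS 5 fell within the DT range. Mrps30, which also sits in the large subunit, had 491, 485, 518, 471 and 476 after PBS and 509, 530.3 and 556 after DT, with only PBS 3 inside the DT range (log2 fold change 0.12, SE 0.053, limma adjusted p = 0.397). Mrps36 is now placed with the 2-oxoglutarate dehydrogenase complex and not with the ribosome, and it gave 0.16 (95% interval -0.09 to 0.40). By position, 47 of 50 large subunit genes had a positive log2 fold change, with a median of 0.089, and 21 of 26 small subunit genes, with a median of 0.093.

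Grouped by ancestry, 46 members were classed as having a bacterial counterpart and 30 as added in mitochondria, Mrps36 being left out. Mrps18a and Mrps18b, although paralogs of bacterial S18, were classed among the 30, and Mrps18b among the 10 of the small subunit given below. The log2 fold change was positive in 41 of the 46 (median 0.090) and in 27 of the 30 (median 0.091). At an unadjusted p under 0.05 and higher after DT, the counts were 6 of 46 and 8 of 30, beside 5.31% of all genes. In the small subunit, the added proteins gave 4 of 10 at that level and a median of 0.12, and those with a bacterial counterpart 1 of 16 (6.25%, close to the share of all genes) and a median of 0.093. These differences between classes were not tested.

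Levels differed far more between members than between groups of mice. Per kb of exon in GENCODE, the 77 genes ranged from 38.0 to 887 normalized counts, with a median of 199 for the large and 140.1 for the small subunit. The order was led by Mrpl54 (887 normalized counts per kb), Mrps21 (717), Mrpl52 (580) and Mrpl14 (497), and it ended with Mrpl33 (43.1), Mrps35 (40.4) and Mrps10 (38.0). Mrpl54 had 636, 712, 747, 566 and 878 normalized counts after PBS and 715, 742 and 808 after DT, with PBS 5 above every DT mouse, and its log2 fold change was 0.10 (SE 0.089). Mrps21 had 508 ± 41.8 normalized counts after PBS and 549 ± 18.6 after DT, a log2 fold change of 0.11 (SE 0.062). In log2 fold change, Mrpl52 gave 0.10 (SE 0.068), Mrpl33 0.11 (SE 0.085) and Mrpl47 0.063 (SE 0.087). The exon length used is the union over all annotated transcripts, which is 8631 bases for Mrps35 and 825 for Mrpl54, and a gene with long unused exons therefore appears lower. The labels name a kit for whole transcripts, whereas the methods of the study refer to trimming rules for 3′-end libraries. If only the ends had been sequenced, a level per kb would not compare genes.

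**Figure D5:**
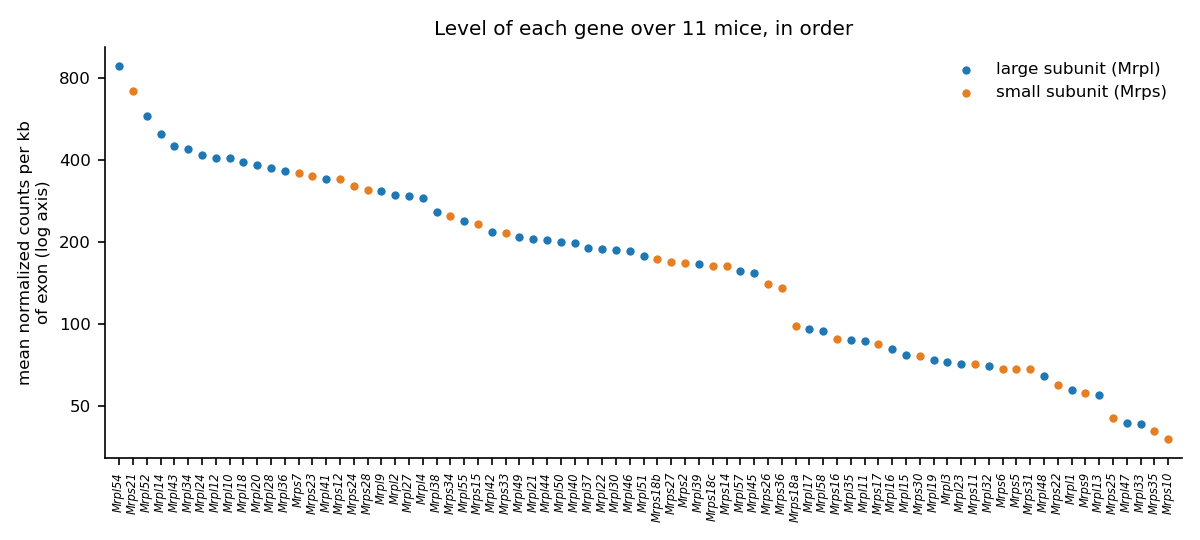
Mean normalized counts per kb of exon over 11 mice (y axis, log scale) for each of the 77 genes in order, large subunit in blue and small subunit in orange. Mrpl54 leads with 887 and Mrps10 is last with 38.0, and genes of both subunits are spread along the order.

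The members lie on 17 chromosomes, with 11 of them on chromosome 11, where 1430 genes were tested. In GENCODE, 19 members have a neighbour that starts within 1000 bases in the opposite direction, such as Ndufs6 beside Mrpl36 (29 bases) and Sars2, the mitochondrial seryl-tRNA synthetase, beside Mrps12 (172 bases). Exons of 7 members overlap another gene on the same strand, 4 of them over more than 10% of their exon bases, and 27 overlap a gene on the opposite strand, 14 over more than 10%. Mrps34 is the most affected, with 37.0% on the same strand (Nme3) and 63.4% on the opposite strand. Whether the authors counted by strand is not given in the sources used here, so the levels of these genes are uncertain.

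RefSeq start windows of 300 bases (250 before and 50 after the start) were matched for 68 members, with 74 windows. CCGGAAG was found on either strand in 25 of the 74 (33.8%), beside 8.86% of all 32851 windows and 14.8% of the windows of tested genes. AAGATGGC was found in 12 (16.2%, beside 2.75% and 3.72%) and GCGCATGC in 8 (10.8%, beside 2.71% and 4.33%). TGACGTCA was found in 2 (2.70%, beside 1.79% and 2.68%) and CACGTG in 7 (9.46%, beside 7.15% and 9.06%), which belong to 5 genes, since 3 overlapping windows of Mrpl2 hold the same match. None of the 5 motifs contains another. ETS matches stood in 14 of 47 large and 11 of 27 small subunit windows. The 25 members with an ETS match had a median log2 fold change of 0.083 and the 43 without it 0.099. A match describes the letters only. Mrps27 holds an ETS and a YY1 match, Mrpl32 holds 4 NRF1 matches that overlap in part, and Mrpl20 holds only an E-box, as the printed windows show.

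Other genes of mitochondrial translation were taken from lists written by hand. Of 6 genes listed as ribosomal proteins under other names, 0 passed by limma and 1 had an unadjusted p under 0.05. Whether each of the 6 belongs to the ribosome, Lactb in particular, was not checked. The 1 gene was Ptcd3, a pentatricopeptide repeat protein of the small subunit, with 685 ± 53.3 normalized counts after PBS and 749 ± 37.2 after DT (log2 fold change 0.13, SE 0.060, limma adjusted p = 0.425). Chchd1 gave 0.058, Lactb 0.054, Gadd45gip1 0.044, Aurkaip1 0.035 and Dap3 -0.0057 on the log2 scale. Of 28 assembly and rRNA factors, 0 passed and 3 were higher at an unadjusted p under 0.05, among them Fastkd2, an RNA-binding protein needed for the large subunit (0.28, SE 0.080, limma adjusted p = 0.196). Noa1 was another of the 3 (0.20, SE 0.057, limma adjusted p = 0.196). Its groups did not overlap, with 481 to 508 normalized counts after PBS and 541 to 641 after DT, beside 0.902% of all genes. Rpusd3, a pseudouridine synthase, gave -0.26 (SE 0.17). The median log2 fold change of this list was 0.046, with 17 of 28 positive. At an unadjusted p under 0.05, 16.7% of the first list and 10.7% of this one were higher, beside 5.31% of all genes.

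Of 16 factors that start, extend, end or assist translation, 0 passed by limma and 3 were higher at an unadjusted p under 0.05, led by Taco1, an activator of cytochrome oxidase subunit synthesis (0.21, SE 0.076, limma adjusted p = 0.293). Mtrf1, a release factor, gave -0.14 (SE 0.14). Of 22 mitochondrial aminoacyl-tRNA synthetases and partners, 0 passed by limma and 1 was higher at an unadjusted p under 0.05, Yars2 (0.23, SE 0.083, limma adjusted p = 0.298), while Mars2 gave -0.21 (SE 0.12). Of 24 genes of mitochondrial DNA replication, transcription and RNA processing, 0 passed by limma. At an unadjusted p under 0.05, 2 were higher and 1 was lower, beside 6.19% of all genes lower. Fastk had 891 ± 50.8 normalized counts after PBS and 791 ± 25.4 after DT (-0.17, SE 0.052, limma adjusted p = 0.220), and Hsd17b10, a subunit of mitochondrial RNase P, gave 0.18 (SE 0.068, limma adjusted p = 0.302). In these 3 lists, 14 of 16, 13 of 22 and 20 of 24 log2 fold changes were positive, with medians of 0.065, 0.040 and 0.098. At an unadjusted p under 0.05, 18.8%, 4.55% and 8.33% of these lists were higher, beside 5.31% of all genes. The share of the synthetases was thus close to that of all genes.

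Of 11 transcription regulators listed, 0 passed the threshold by limma. At an unadjusted p under 0.05, 2 were higher, Gabpb1 and Tfb2m (18.2%, beside 5.31% of all genes). The 1 that was lower was Ppargc1a, beside 6.19% of all genes. Tfb2m was also counted among the genes of mitochondrial DNA replication, transcription and RNA processing above, and gave 0.13 (SE 0.058, limma adjusted p = 0.392). Gabpb1, the partner of the ETS factor GABPA, had 370.0, 419, 412, 436 and 399.8 normalized counts after PBS and 437 to 474 after DT (log2 fold change 0.14, SE 0.058, limma adjusted p = 0.373). Its groups did not overlap, beside 0.902% of all genes, although PBS 4 and the lowest DT mouse differed by less than 1 count. Ppargc1a, a coactivator of mitochondrial biogenesis, had 58.8, 43.7, 70.4, 54.6 and 48.3 after PBS and 33.3 to 52.4 after DT (-0.48, SE 0.16, limma adjusted p = 0.264).

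The mRNAs that this ribosome translates had lower estimates after DT. All 12 mitochondrially encoded mRNAs with a value had a negative log2 fold change, with a median of -0.64. At an unadjusted p under 0.05, 9 of 12 were lower, beside 6.19% of all genes. The 12 share their mice and are not independent of one another. Past the threshold fell mt-Co2, subunit 2 of cytochrome oxidase, beside 0.245% of all genes (46.8 ± 14.9 normalized counts after PBS, 19.9 ± 4.01 after DT, -1.15, SE 0.23, limma adjusted p = 0.0549). Its groups lay apart by little, with 26.2 in PBS 3 and 25.4 in the highest DT mouse. The call was lost without PBS 1, PBS 2, DT 1, DT 3 or DT 5 (limma adjusted p = 0.108 to 0.159) and with a block on library numbers (limma adjusted p = 0.187). Since DT 5 has no partner in that block, its estimate is the same as without DT 5 (-1.1752). The summed level of the 12 mRNAs was 2.87%, 4.14%, 1.63%, 2.92% and 3.03% of the normalized counts from PBS 1 to PBS 5 and 1.34% to 2.24% in the DT mice, a mean difference of -1.15 percentage points. PBS 3 lay within the DT range and the other PBS mice above it. The list was chosen with earlier results of these data known, so no p-value is given for its sum. Reads of these genes can be shared with nuclear copies, and selection by polyA can favour or miss them. After PBS, mt-Nd3, mt-Atp6, mt-Co2 and mt-Co3 averaged only 32.8, 38.1, 46.8 and 107 normalized counts. The others ran from 3498 (mt-Nd6) to 218880 (mt-Co1). The call of mt-Co2 therefore rests on few reads, and whether they represent the level of its mRNA was not tested.

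Markers of other cells were compared between the same groups. Of 8 LC markers 0 passed the threshold by limma. At an unadjusted p under 0.05, 2 were lower after DT (Cd74, log2 fold change -0.50, and Mfge8, -0.35), beside 6.19% of all genes. Cd207, the langerin gene, averaged 23.9 normalized counts after PBS and 18.4 after DT (-0.19, SE 0.30), and Cd1d1 gave 0.016. The summed level of the 8 was 2369 to 5574 normalized counts after PBS and 1743 to 3303 after DT. None of 10 keratinocyte markers passed, and 0 of them had an unadjusted p under 0.05 by limma. Of 7 neutrophil and monocyte markers with a value 0 passed by limma and 1 was lower at that level (Csf1r), and of 6 fibroblast markers likewise 1 (Col1a1). The lists of T cells, endothelium, skeletal muscle, salivary gland, melanocytes and Schwann cells, fat and erythroid cells gave 0 genes at an unadjusted p under 0.05 by limma and 0 past the threshold. The part of these cells in the values of the members was not tested.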

How the data were processed

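Total RNA of gingival epithelium from 11 langerin-DTR mice was sequenced as polyA-selected stranded libraries. The authors trimmed the reads (cutadapt), aligned them with TopHat 2.1.1, counted them per gene with htseq-count, removed genes whose counts summed to less than 10, and scaled each mouse's counts by a DESeq2 size factor, so the deposited values are normalized counts. The methods of the study name GRCm38 and Ensembl 89, and the submitters' processing notes name another build, so coordinates here are those of GENCODE and RefSeq on GRCm38. The values are whole multiples of a step per mouse (100% within 0.05 of a step), which gave the reads per mouse and was used for depth only. All per-sample columns were used.

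The 77 members were chosen by symbol. Members and lists were chosen with earlier results of these data known. The groups were compared on log2(normalized count + 1) in limma 3.58.1 (R 4.3.3) with the variance trend on and no covariates, adjusted by Benjamini-Hochberg over 19170 genes, with a threshold of 0.1. Fold changes on this scale understate changes of low genes. Nothing in the labels gives litters or cages, and each library is treated as a separate mouse, so the p-values measure only the spread between these samples. Named genes were the members past the threshold and 9 members of uncommon position. In each subunit the 4 smallest p-values of positive and the 3 of negative fold changes were added. So were the 3 highest and 2 lowest levels per kb and the widest spread of each subunit. From each related list came the smallest p in either direction, and the genes listed as ribosomal proteins under other names were all named. Tfb2m, Noa1 and the mitochondrial mRNAs besides mt-Co2 were named after their values were seen. Other members named, such as Mrpl16, Mrpl19, Mrpl22, Mrpl32, Mrpl38, Mrpl46, Mrps11, Mrps12, Mrps16 and Mrps34, and the single marker genes named were chosen after their values were seen. Length and GC values came from GENCODE, which matched all 77 members, and motif values from RefSeq windows, which matched 68 of them. The procedure was tested on simulated data in which genes were independent and the changes far larger than those of the members. That test does not show how small differences shared across genes are recovered. The alternatives were other pseudocounts (0.5 and 5), a filter at a mean of 10, TMM and quantile scaling, centring on the median gene, array weights, blocks on the replicate numbers, a correction for length and GC (loess, span 0.3), and leaving out mice.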

Additional observations from a re-analysis of the deposited data

Results flagged for a closer look

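In 5 of the 104 groups of 5 or 6 mice tested, a single mouse stood apart from the rest by Dixon's criterion, and chance flags about 1 in 20 groups. Mrps21 had 436.2 normalized counts in PBS 4 and 518.0 to 545.6 in the other PBS mice. Mrps18c had 151.2 in PBS 4 and 176.5 to 183.6 in the others. Gadd45gip1 had 322.6 in PBS 2 and 363.2 to 367.9 in the other PBS mice. Gabpb1 had 474.3 in DT 6 and 436.7 to 446.6 in the other DT mice. Ppargc1a had 52.38 in DT 3 and 33.28 to 40.12 in the other DT mice.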

How the results depend on the processing

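The median log2 fold change stayed positive for both subunits in all 23 alternative fits, and in 21 of them 0 members passed the threshold. Leaving out 1 mouse gave medians of 0.0462 to 0.1171 (large) and 0.0684 to 0.1143 (small), 3 to 14 large and 3 to 10 small subunit genes higher at an unadjusted p under 0.05, 0 to 1 past the threshold in each subunit, and 27 (without DT 5) to 259 (without PBS 5) genes past it in all, beside 107 with all mice. Without PBS 3 and PBS 5, an alternative chosen after seeing the data, these counts were 22, 14, 12, 7 and 1967. The share of all genes at an unadjusted p under 0.05 was not counted in the alternative fits, so the member counts at that level have no background there. The count of all genes past the threshold was 189 with array weights and 166 with the length and GC correction. Large subunit genes at an unadjusted p under 0.05 were 5 with quantile normalization, and small subunit genes were 10 with array weights. The replicate numbers did not pair the mice (correlations of same-numbered mice from -0.233 to 0.324). With the replicate block all genes past the threshold were 35, also with the length and GC correction, and 3 large subunit genes had an unadjusted p under 0.05. With the block on library numbers the counts were 0 of all genes by limma, 0 large and 2 small subunit genes. Library number 5 occurs only for DT 5 and replicate number 6 only for DT 6. Within blocks these mice have no partner and add nothing to the estimates. The block on library numbers therefore gave the medians of the fit without DT 5 (0.0650 large, 0.1038 small). The replicate block gave those of the fit without DT 6 (0.0872 and 0.1044). These fits are not separate checks of the medians. What changed the counts was not tested.

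Reversed signs concerned log2 fold changes close to 0. They were, for Dap3, 0.0111 with the length and GC correction, 0.0109 with the block added, 0.0010 with the block on library numbers and 0.0434 without PBS 3 and PBS 5. For Mrpl37 they were 0.0001 with the length and GC correction, 0.0018 with the replicate block, 0.0121 with both and 0.0008 with the block on library numbers. Others were Mrpl34 (-0.0080, block with length and GC), Mrpl41 (0.0541, without PBS 3 and PBS 5), Mrpl55 (0.0106 with array weights and 0.1137 without PBS 3 and PBS 5), Mrpl58 (-0.0048 with array weights and -0.0045 with library numbers), Mrps18b (0.0023, library numbers) and Mrps18c (-0.0009 with length and GC and -0.0051 with library numbers). Over all fits that left out mice, PBS 3 and PBS 5 together included, the lowest and highest values were Aurkaip1 -0.0257 to 0.1837, Chchd1 -0.0085 to 0.1134, Dap3 -0.0453 to 0.0434, Mrpl34 -0.0335 to 0.2124, Mrpl37 -0.0318 to 0.0088, Mrpl41 -0.0982 to 0.0541, Mrpl55 -0.0880 to 0.1137, Mrpl58 -0.0242 to 0.0292, Mrps18b -0.0446 to 0.0167 and Mrps18c -0.0193 to 0.0791. Count tests with edgeR and DESeq2 on reads recovered from the values were planned and not run. The scalings moved the median of all genes by at most 0.0143. With 5 and 6 mice and a median standard error of 0.071 per member, differences of the size seen here were mostly too small to pass for a single gene.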
